A study of Mus musculus with 11 samples.

Results

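Brown adipose tissue (BAT) of mice whose preBötzinger complex (preBötC) had received a Cre virus was compared with BAT of mice given a GFP virus. The 3 Cre and 2 control libraries compared here are all 5 BAT libraries of a set of 11, and were taken by tissue and virus from the sample labels. Every one of the 2500 genes in the deposited BAT table was used, 1982 of them with a symbol that is not a predicted or clone name. The study asked how a change of neuropeptide signalling in this brainstem region bears on fear and metabolism. The Cre group (libraries 4, 5 and 6) came from mice with floxed Adcyap1r1 injected in the preBötC with AAV-Cre, an adeno-associated virus that carries Cre recombinase. The control group (libraries 1 and 2) came from mice of the same genotype injected there with AAV-GFP. The sample labels spell the genotype Acypap1r1 floxed/floxed, and the series' design text names the gene Adcyap1r1. All mice of both groups carried the floxed alleles and went through SEFL, a procedure the labels do not expand. Age, sex and strain of the mice and the promoter of the viruses are not given in the sources used here. The labels also do not say whether a library is 1 mouse or a pool, so the p-values below measure the spread between these libraries only.

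BAT burns lipid and glucose to make heat, through the uncoupling protein UCP1 in its mitochondria, and is driven by noradrenaline from sympathetic nerves. The preBötC generates the rhythm of breathing. Adcyap1r1 encodes PAC1, the receptor of the neuropeptide PACAP, and Cre removes the sequence between loxP sites in the infected brain cells. The virus was given in the brain, so a gene level in BAT would not check the deletion, and Adcyap1r1 is not among the 2500 genes.

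The values are row z-scores, so every gene was put on its own scale, with its mean at 0 and its SD as the unit, over 6 libraries of which 5 are used here. The remaining one is not analysed here. A z-score says where a library lies among the others for 1 gene. It keeps neither the level of the gene nor a fold change, cannot exceed 2.24 with 6 libraries, and leaves sequencing depth unknown. Ucp1 is not among the 2500 genes. Of 19 brown adipocyte markers, Dio2 alone is among them, and of 16 markers shared by fat cells, Cfd alone, so the tissue label could not be checked by level.

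Libraries stood apart before any comparison was made. Control 1 was the highest of the 5 libraries for 1767 genes (70.7%) and control 2 for 218, while Cre 4 was the lowest for 1196 (47.8%). Control 1 lay alone at the top, separated from the next library by over 0.5 of the gene's range, for 1182 genes, and Cre 5 for 169. The median z-score over all genes was -0.60, -0.21 and -0.46 in Cre 4, 5 and 6, against 1.80 and -0.41 in controls 1 and 2. Markers of other tissues were also uneven: 4 lung epithelium genes averaged 2.20 in Cre 4 and at most -0.30 in the others. The 20 hepatocyte genes averaged 1.89 in Cre 6 and at most 0.02 in the others. The 28 T and NK cell genes averaged 2.13 in control 1 and at most -0.22 in the others. The 4 Y-linked genes, which lie on the Y chromosome and mark no tissue, averaged 2.21 in control 1. They averaged -0.55, -0.48 and -0.22 in Cre 4, 5 and 6, and -0.52 in control 2. The labels give no sex, and a difference in sex between the libraries was not tested. The 4 mitochondrially encoded genes averaged -2.16 in Cre 5. Results that rest on one of these libraries are given with and without it, and the part of those markers in them was not tested.

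More genes lay lower than higher in Cre BAT. The Cre mean was below the control mean for 2062 genes (82.5%) and above it for 438 (17.5%). Groups did not overlap for 826 genes (33%), with all 3 Cre libraries below both controls for 717 (28.7%) and above both for 109 (4.36%). The further library of the scaling takes no part in this count. In limma's gene-wise linear model with Benjamini-Hochberg adjustment over the 2500 genes, 0 genes passed an adjusted p of 0.05, and the smallest adjusted p was 0.363. Counted by unadjusted p under 0.05 instead, 262 genes lay lower in Cre (10.5%) and 23 higher (0.92%). With limma's variance moderation these were 209 and 17, and again 0 passed the adjusted threshold. No gene or list below is therefore called changed, and "lower" and "higher" give the order of the values.

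The overall tilt to lower Cre values rested on control 1. Without it the Cre mean was lower for 49.4% of genes and higher for 45.6%, with the rest at no difference. The median difference over all genes was then 0, against -1.29 with all 5 libraries. With control 1 and Cre 4 both left out the Cre mean was lower for 44.4% and higher for 49.8%. With control 2 removed, control 1 is a lone library that is assumed to spread as the Cre ones do, and the adjusted threshold was passed by 433 genes (17.3%), and 1924 genes (77%) were non-overlapping and lower. Without control 1, 778 genes (31.1%) were non-overlapping and lower and 462 (18.5%) higher. Leaving out Cre 4 gave 180 non-overlapping higher genes (7.2%). Centring each library on its median, an alternative added after the data were seen, left 61.7% of genes with a lower Cre mean, and ranking genes within each library left 60.1%. Centring adds the same 1.12 to the difference of every gene, so the median over all genes became -0.17, and a list with a median above -1.12 turns or stays positive by that shift alone. With ranks the median over all genes was -0.09 of the rank range. Non-overlapping genes then numbered 166 lower (6.64%) and 221 higher (8.84%) with centring, and 142 lower (5.68%) and 234 higher (9.36%) with ranks.

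**Figure D1:**
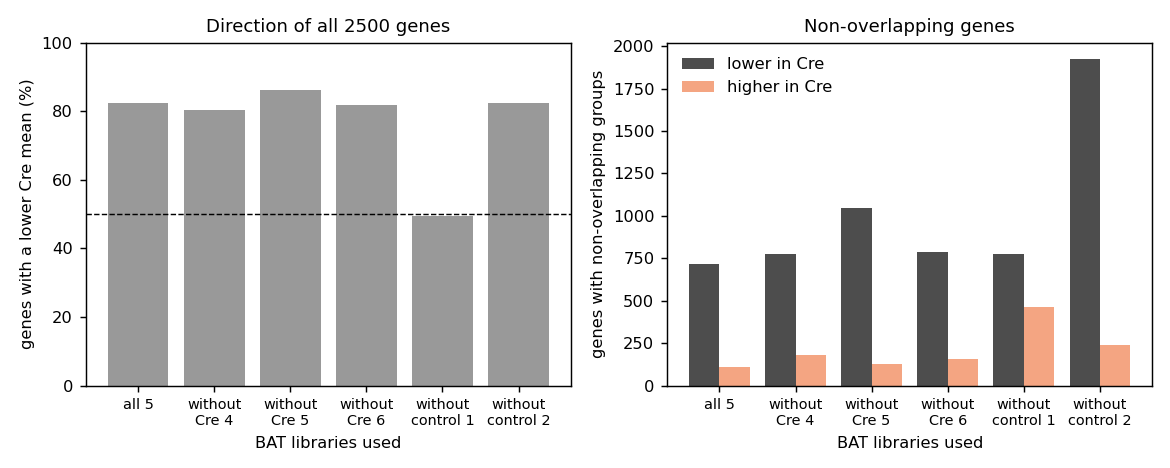
Left, the percentage of the 2500 genes with a lower Cre mean, and right, the number of genes whose Cre libraries all lay below (dark) or all above (light) the controls, with all 5 BAT libraries and with each left out in turn. The share of lower genes is 82.5% with all 5 libraries and 49.4% without control 1, and the dashed line marks 50%.

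Genes with non-overlapping groups keep their direction whichever library is left out, so only the size of their difference could change. Of the 717 non-overlapping lower genes, 529 (73.8%) kept at least 0.5 of their difference whichever library was left out. The difference shrank below that without control 1 in 176 (24.5%), without Cre 5 in 10, and without Cre 4 or control 2 in 1 each. The median of their differences, -1.78 over the 5 libraries, was -1.59 once control 1 was removed and -1.54 once Cre 4 was removed. Of the 109 non-overlapping higher genes 84 (77.1%) kept at least 0.5 of their difference. A difference of at least 1 with every library left out in turn was kept by 466 genes lower in Cre (18.6%) and by 58 higher (2.32%). Of the 826 non-overlapping genes, 242 were non-overlapping in the same direction with centring and 225 with ranks.

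**Figure D2:**
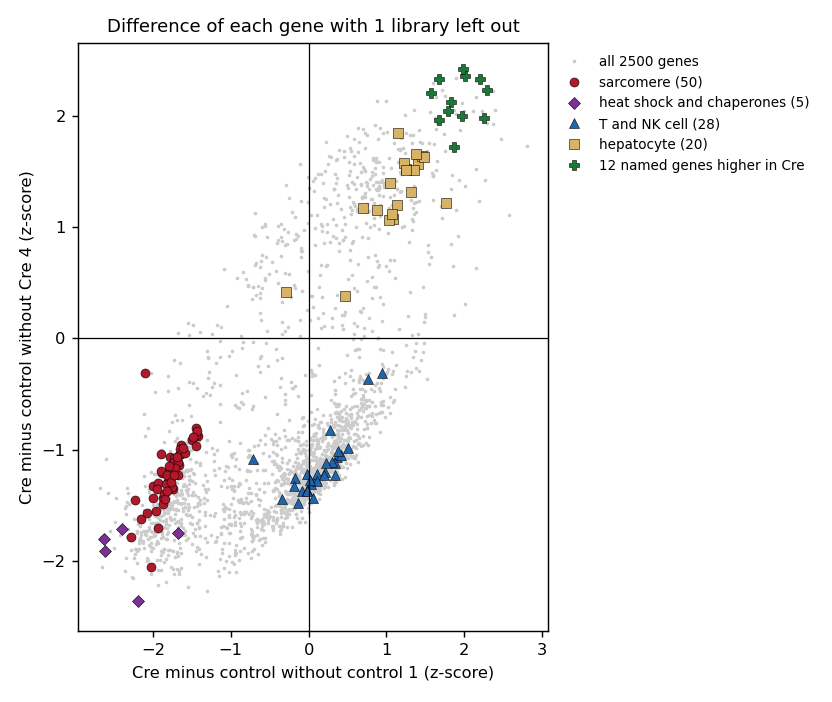
Each point is 1 gene, placed by its Cre minus control difference in z-score without control 1 (horizontal) and without Cre 4 (vertical). The T and NK cell genes gather near 0 on the horizontal axis, with a median of 0.11, while the sarcomere genes, with a median of -1.79, and the heat shock genes, with -2.40, stay to the left, and the 12 named genes higher in Cre lie at the upper right, a place fixed by the differences that chose them.

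Among the gene lists used here, those of skeletal muscle held the most genes that were non-overlapping and lower in Cre BAT. Of 142 genes in 6 muscle lists, 109 were in the table, all 109 had a lower Cre mean, and 106 of them had non-overlapping groups, against 28.7% of all genes. They made up 14.8% of the 717 non-overlapping lower genes, and the other 611 lay outside the muscle lists. An unadjusted limma p under 0.05 was reached by 32 of them, beside 10.5% of all genes that were lower at that threshold. The adjusted threshold was reached by 0. All 109 were lowest in Cre 4. Over the 5 libraries their differences had a median of -1.78, which became -1.29 without Cre 4, -1.74 without control 1 and -1.27 without both, beside medians over all genes of -1.29, -1.19, 0 and 0. It was -0.66 with centring and -0.15 of the rank range with ranks, beside -0.17 and -0.09 over all genes. BAT was sequenced as bulk tissue, so fewer cells of a type and less RNA per cell cannot be told apart, and how much skeletal muscle each BAT sample held was not tested.

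The sarcomere list, the contractile and scaffold proteins of the muscle fibre, had all 50 members in the table, 49 of them non-overlapping and lower. Its mean was -1.65, -0.08 and -0.02 in Cre 4, 5 and 6, against 1.11 and 1.20 in controls 1 and 2. Cre 4 was thus far below the others, Cre 5 and Cre 6 lay close to 0, and both controls lay above all 3. Acta1, the actin of skeletal muscle, had -1.91, 0.09 and 0.09 in Cre 4, 5 and 6, against 1.03 and 1.07 in controls 1 and 2. Its difference was -1.62 with a standard error of 0.86, and -0.96 without Cre 4. Myl1, an essential myosin light chain of fast fibres, was more even, with -1.31, -0.52 and -0.21 in Cre 4, 5 and 6, against 1.41 and 1.26 in controls 1 and 2. Its difference was -2.01 with a standard error of 0.43 and a limma adjusted p of 0.371, and at least 1.70 in size with any library left out.

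Myosin heavy chain genes, a family picked after its values were seen, differed in how much they rested on Cre 4. All 8 other than the smooth muscle gene Myh11 were non-overlapping and lower, against 28.7% of all genes. Their median difference was -1.90, and it was negative with centring and ranks too. Myh4, the heavy chain of the fastest fibres, had -1.94, 0.15 and 0.12 in Cre 4, 5 and 6, against 1.16 and 0.86 in controls 1 and 2. Myh6, the cardiac alpha heavy chain, had -0.45, -0.57 and -0.71 in Cre 4, 5 and 6, against 1.12 and 1.63 in controls 1 and 2. Myh3, the embryonic heavy chain, had -0.87, -0.49 and -0.59 in Cre 4, 5 and 6, against 0.85 and 1.84 in controls 1 and 2. For Myh4 the lowest library, Cre 4, lay far below the others, and the difference, -1.57 over all 5, was -0.88 once Cre 4 was removed. For Myh6 the 3 Cre libraries lay together, and its difference stayed at 1.70 or more in size with any library left out.

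Genes of the neuromuscular junction, where motor nerves contact muscle fibres, were among the most evenly lower. Of 16 list members 7 were in the table, all 7 non-overlapping and lower, against 28.7% of all genes. Their median difference was -2.03, and it was -1.78 without Cre 4 and -1.93 without control 1. Dok7, an adaptor that activates the receptor kinase MuSK, had -0.91, -0.64 and -0.81 in Cre 4, 5 and 6, against 1.55 and 1.24 in controls 1 and 2. Colq, the collagen tail that anchors acetylcholinesterase, had -0.88, -0.70 and -0.66 in Cre 4, 5 and 6, against 1.60 and 1.19 in controls 1 and 2. In both genes the Cre libraries were close together and well below the controls. Lrp4, the agrin receptor, had a difference of -2.10 with a standard error of 0.31 and a limma adjusted p of 0.363. The acetylcholine receptor subunits were less even: Chrnb1 had -1.47, 0.57 and -1.13 in Cre 4, 5 and 6, against 1.09 and 1.03 in controls 1 and 2, so Cre 5 came near the controls.

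The other muscle lists followed, beside 28.7% of all genes that were non-overlapping and lower. Of 20 myogenic regulators 12 were in the table, all with a lower Cre mean and 11 non-overlapping, with a median difference of -1.90. Myod1, a master regulator of muscle differentiation, had -1.07, -0.02 and -0.46 in Cre 4, 5 and 6, against 1.52 and 1.10 in controls 1 and 2. Mstn, the growth inhibitor myostatin, had -1.14, -0.70 and -0.53 in Cre 4, 5 and 6, against 1.78 and 0.85 in controls 1 and 2. Of 28 genes of muscle calcium handling and excitation 26 were in the table, 25 of them non-overlapping and lower, with a median difference of -1.76. Atp2a1, the calcium pump of fast fibres, had -1.95, 0.20 and 0.08 in Cre 4, 5 and 6, against 1.07 and 0.94 in controls 1 and 2. Atp2a2, the calcium pump of slow fibres and heart, is in none of the 6 muscle lists and was lowest in Cre 5 instead. It had -0.62, -1.09 and -0.46 in Cre 4, 5 and 6, against 1.23 and 1.54 in controls 1 and 2. Sln, sarcolipin, the peptide that regulates these pumps and is tied to heat production in muscle, had a difference of -1.65, and of -1.22 without Cre 4. All 14 of 28 muscle energy genes in the table were non-overlapping and lower. Among them Ckm, the muscle creatine kinase, had a difference of -1.53, and of -0.82 without Cre 4. In families that were picked with their values in view the groups had the same order: all 9 ankyrin repeat and SOCS box (Asb) genes, all 8 kelch-like (Klhl) genes and all 6 small heat shock protein genes (Hspb and Cryab) were non-overlapping and lower. Their median differences were -1.95, -1.84 and -1.93, and they stayed negative with centring and ranks. The share of all genes beside these families is the same 28.7%.

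The promoters of 2 sarcomere genes are shown, because the members of that list lay lower together. They are the 250 bases upstream of the RefSeq start in GRCm38.p6, both on the minus strand: chr8:123894776-123895025 for Acta1, whose difference was -0.96 without Cre 4, and chr1:66945057-66945306 for Myl1, whose difference was -1.70 without it. Capitals mark the E-box CAGCTG, a letter pattern bound by MyoD-type factors.
Acta1: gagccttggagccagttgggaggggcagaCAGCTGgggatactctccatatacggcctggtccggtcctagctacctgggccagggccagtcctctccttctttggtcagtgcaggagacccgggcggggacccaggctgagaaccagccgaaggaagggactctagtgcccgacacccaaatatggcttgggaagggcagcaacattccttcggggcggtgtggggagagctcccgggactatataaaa
Myl1: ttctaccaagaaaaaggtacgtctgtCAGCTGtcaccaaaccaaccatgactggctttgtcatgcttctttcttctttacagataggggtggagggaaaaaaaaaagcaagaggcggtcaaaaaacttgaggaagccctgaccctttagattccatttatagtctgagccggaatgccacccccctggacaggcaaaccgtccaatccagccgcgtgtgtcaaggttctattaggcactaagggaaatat
The pattern reads the same on both strands. It was found in 18 of the 38 sarcomere list promoters matched by symbol (47.4%), in windows of 250 bases before to 50 after the start. It was found in 142 of 489 matched promoters of non-overlapping lower genes (29%), in 22.5% of those of table genes and in 18.3% of all 27025 RefSeq promoters. The pattern TATAAA, searched on both strands, was found in 11 of the 38 sarcomere promoters (28.9%) and in 15.7% of all promoters. The motifs were chosen after the values had been seen, and a match is a description of letters only.

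Heat shock genes formed a small group that lay lower in Cre BAT. Of 20 list members, chaperones and their regulators that refold proteins under stress, 5 were in the table, and all 5 were non-overlapping and lower, against 28.7% of all genes. The median difference was -2.03, beside -1.29 over all genes. It was -1.80 without Cre 4, -2.40 without control 1 and -1.66 without control 2. Since the groups did not overlap, the direction in these fits was fixed and only the size could change. The median was -0.91 with centring and -0.30 of the rank range with ranks, beside -0.17 and -0.09 over all genes. Averaged over the 5, the z-score was -0.93, -0.70 and -0.63 in Cre 4, 5 and 6, against 0.93 and 1.55 in controls 1 and 2. Unlike that of the sarcomere list, this average was close to the same in all 3 Cre libraries. The members were less even, with 3 lowest in Cre 4 and 2 lowest in Cre 5. The controls that were high here were also high for muscle genes, and the part of muscle in this group was not tested.

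Hspa1a, an inducible HSP70 chaperone, had -1.38, -0.28 and -0.57 in Cre 4, 5 and 6, against 0.92 and 1.65 in controls 1 and 2. Its neighbour Hspa1b had -1.13, -0.42 and -0.88 in Cre 4, 5 and 6, against 0.71 and 1.81 in controls 1 and 2. In both, control 2 was the highest library and Cre 4 the lowest. Hsf2, a heat shock transcription factor, had -0.41, -1.44 and -0.75 in Cre 4, 5 and 6, against 1.19 and 1.33 in controls 1 and 2. Hspa1l, an HSP70 relative known from the testis, had -0.86, -0.05 and -0.77 in Cre 4, 5 and 6, against 1.55 and 1.12 in controls 1 and 2. Hsph1, an HSP110 cochaperone, had -0.85, -1.31 and -0.18 in Cre 4, 5 and 6, against 0.27 and 1.85 in controls 1 and 2. Hsph1 was the least separate of the 5, since control 1 lay only 0.45 above Cre 6. The limma adjusted p was 0.400 for Hspa1a and 0.365 for Hsf2.

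Hspa1a and Hspa1b are near-identical copies, which matters because reads of one may be counted for the other. Their upstream sequences show how close they are. The 250 bases before each RefSeq start in GRCm38.p6 are printed, both on the minus strand, chr17:34972157-34972406 for Hspa1a and chr17:34959239-34959488 for Hspa1b. Capitals mark the heat shock element GAANNTTC, a pattern bound by heat shock factors.
Hspa1a: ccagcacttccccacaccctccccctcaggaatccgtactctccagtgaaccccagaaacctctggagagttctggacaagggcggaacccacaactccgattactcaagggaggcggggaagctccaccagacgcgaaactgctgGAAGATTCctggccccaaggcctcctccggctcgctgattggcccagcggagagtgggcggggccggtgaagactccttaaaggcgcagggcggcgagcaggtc
Hspa1b: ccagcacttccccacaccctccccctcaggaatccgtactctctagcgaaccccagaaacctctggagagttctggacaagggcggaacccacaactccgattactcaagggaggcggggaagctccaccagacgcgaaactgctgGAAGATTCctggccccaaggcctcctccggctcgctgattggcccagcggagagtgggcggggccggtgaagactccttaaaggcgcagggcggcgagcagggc
The windows differed at 3 of 250 bases (98.8% identical): C44T, T47C and T249G, with the Hspa1a base first and positions counted from 1 at the 5′ end. The element began 104 bases upstream of the start in both. It was found in 3 of the 5 heat shock list promoters (Hspa1a, Hspa1b and Hsph1) and in 9.04% of all promoters, searched on both strands in the window of 250 bases before to 50 after the start. A longer form, in which NNGAA follows directly, was in Hsph1 only among the 5, and in 0.662% of all promoters. The short form was added after the long one had not been found in the Hspa1 windows, and TATAAA was found in 0 of the 5.

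The genes whose difference was best kept with any library left out were named by rule, 12 in each direction. The 12 lower in Cre differed by -2.18 to -2.11, and by at least 1.92 in size with any library left out. Their limma adjusted p was 0.363 for all 12. Pdlim5 (chromosome 3, 142239590 to 142395696 in GRCm38), a PDZ and LIM domain protein of the muscle Z-disc, had -0.88, -0.82 and -0.49 in Cre 4, 5 and 6, against 1.50 and 1.30 in controls 1 and 2. Kcnma1 (chromosome 14, 23289431 to 24014491), the pore subunit of the BK potassium channel, had -0.95, -0.39 and -0.83 in Cre 4, 5 and 6, against 1.44 and 1.35 in controls 1 and 2. In both genes the 5 libraries fell into the labelled groups with a gap wider than either group's own range. Prkg1 (chromosome 19, 30564489 to 31765033), the cGMP-dependent protein kinase, had -1.12, -0.28 and -0.97 in Cre 4, 5 and 6, against 1.41 and 1.28 in controls 1 and 2. Nnt, the mitochondrial transhydrogenase that makes NADPH, had -1.13, -0.99 and -0.28 in Cre 4, 5 and 6, against 1.23 and 1.45 in controls 1 and 2. Cd24a, a surface glycoprotein of immature and immune cells, had -1.17, -0.53 and -0.88 in Cre 4, 5 and 6, against 1.51 and 1.14 in controls 1 and 2. Here Cre 5 came closest to the controls, and the groups stayed apart by 1.66. Myl6b, a myosin light chain, Dnase1l1, a DNase I relative, Agbl1, a carboxypeptidase, and Efcab6, an EF-hand protein, completed the 12 together with Dok7, Colq and Atp2a2.

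The 12 genes higher in Cre differed by 1.87 to 2.20, and by at least 1.52 with any library left out, with limma adjusted p between 0.363 and 0.485. Aspg, an asparaginase, had 0.82, 1.22 and 0.62 in Cre 4, 5 and 6, against -1.22 and -1.40 in controls 1 and 2. S1pr5 (chromosome 9, 21242912 to 21248443), a receptor for sphingosine 1-phosphate, had 1.28, 0.92 and 0.65 in Cre 4, 5 and 6, against -1.10 and -1.30 in controls 1 and 2. These were the pair with the widest gaps between the groups, 1.84 for Aspg and 1.74 for S1pr5. Plcd1 (chromosome 9, 119071527 to 119093502), phospholipase C delta 1, had 1.05, 1.18 and 0.21 in Cre 4, 5 and 6, against -1.44 and -1.16 in controls 1 and 2. Acot12, which splits acetyl-CoA, had 0.02, 0.78 and 1.32 in Cre 4, 5 and 6, against -1.58 and -0.98 in controls 1 and 2. Abcc8, the sulfonylurea receptor of ATP-sensitive potassium channels, had 0.08, 1.62 and 0.69 in Cre 4, 5 and 6, against -1.19 and -1.21 in controls 1 and 2. In these 3 genes the Cre libraries spread more widely than the controls. Slc15a2, a peptide transporter, had its lowest Cre value in Cre 6, with 0.89, 1.13 and -0.24 in Cre 4, 5 and 6, against -1.28 and -1.28 in controls 1 and 2. Wscd1, Arhgef19, a guanine nucleotide exchange factor, Sh3tc2, known from Schwann cells, Ccdc151, a cilia protein, Hpd, of tyrosine breakdown, and Tenm1, a teneurin, completed the 12. Hpd is also made by the liver, and hepatocyte genes were high in Cre 6. Hpd itself had 1.18 in Cre 6 and its highest value, 1.38, in Cre 5. Of the 12, Acot12 and Ccdc151 had their highest value in Cre 6. The part of liver RNA in these genes was not tested.

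**Figure D3:**
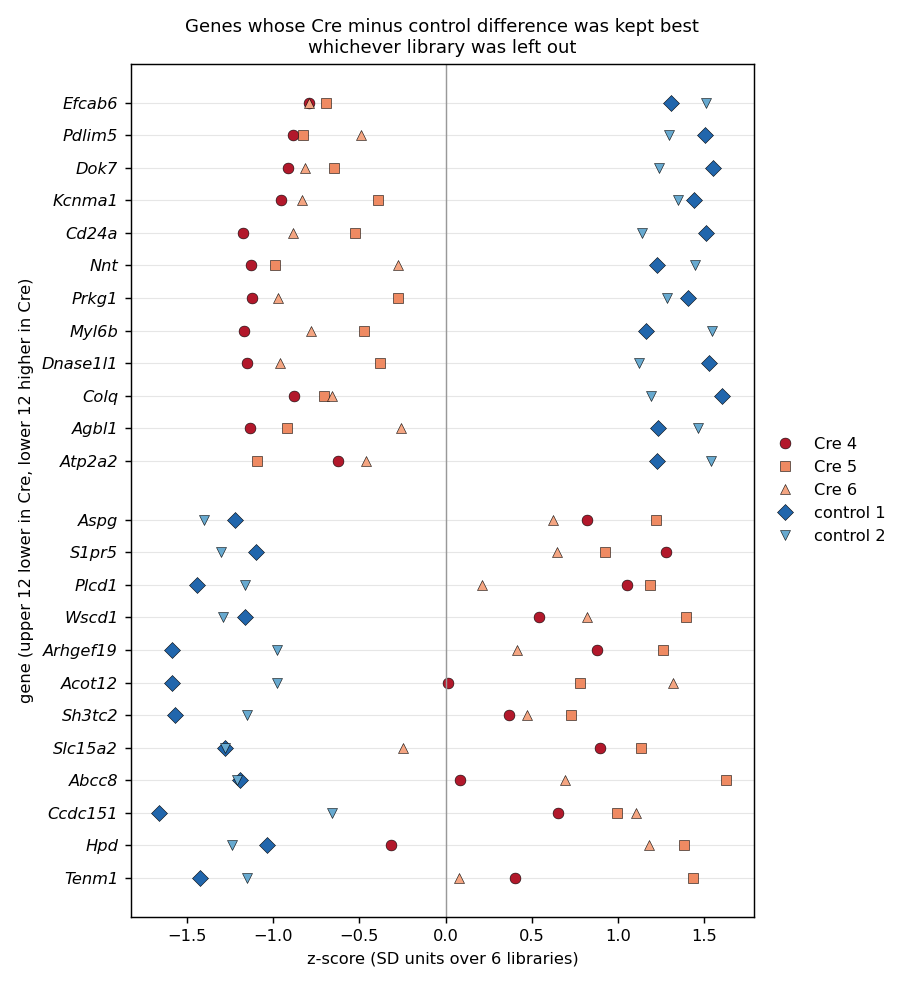
The z-score of each named gene (rows) in each of the 5 BAT libraries, with Cre libraries in red shades and control libraries in blue. In the upper 12 genes the Cre libraries lie left of the controls and in the lower 12 right of them, with gaps between the groups of 1.49 to 1.99 in the upper and 0.72 to 1.84 in the lower set.

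Genes of fat metabolism were few in the table and did not move one way. Of 24 genes of fatty acid synthesis and desaturation 3 were in the table, with a median difference of -1.46. Scd1, the stearoyl-CoA desaturase, had -0.72, -1.23 and 0.44 in Cre 4, 5 and 6, against 1.003 and 1.40 in controls 1 and 2. Scd2 had -0.69, -0.72 and 0.44 in Cre 4, 5 and 6, against 0.64 and 1.64 in controls 1 and 2. In both, Cre 6 lay close below control 1. Bdh1, a ketone body dehydrogenase, had -0.71, -0.31 and -0.65 in Cre 4, 5 and 6, against 1.62 and 1.10 in controls 1 and 2. Acot1, an acyl-CoA thioesterase and a target of the lipid sensor PPARalpha, ran the other way, with 1.16, 0.37 and -0.01 in Cre 4, 5 and 6, against -1.49 and -1.09 in controls 1 and 2. Got2, a mitochondrial aspartate aminotransferase chosen after its values were seen, had -1.09, -0.40 and -0.58 in Cre 4, 5 and 6, against 1.43 and 1.34 in controls 1 and 2.

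Secreted products and signalling genes of fat cells were also divided. Of 32 adipokines and secreted factors 8 were in the table, 2 non-overlapping and lower and 3 higher, against 28.7% and 4.36% of all genes. The median difference was 0.78, and 0.02 without Cre 5, and ranks put it at 0.26 of the rank range. Lep, the satiety hormone leptin, had -0.73, -1.82 and 0.56 in Cre 4, 5 and 6, against 1.01 and 0.90 in controls 1 and 2. Cfd, the complement factor adipsin made by fat cells, had 0.22, 1.61 and -0.54 in Cre 4, 5 and 6, against -1.30 and -0.82 in controls 1 and 2. Apln, the vasoactive peptide apelin, had 0.01, 1.69 and 0.26 in Cre 4, 5 and 6, against -1.29 and -1.10 in controls 1 and 2. Leptin was lowest and adipsin and apelin highest in Cre 5, and Cfd differed by 1.49 over all 5 libraries but by 0.90 once Cre 5 was removed. Slc7a10, an amino acid transporter of white fat cells, had 0.59, 1.32 and -0.07 in Cre 4, 5 and 6, against -1.69 and -0.80 in controls 1 and 2. It was the only higher one of 4 white adipocyte markers in the table, and 3, Lep among them, had a lower Cre mean. The median difference of these 4 markers was -1.26, near the -1.29 over all genes. Klf15, a transcription factor of nutrient metabolism chosen after its values were seen, had 1.02, 0.74 and 0.19 in Cre 4, 5 and 6, against -1.95 and -0.53 in controls 1 and 2.

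Heat production genes gave no one direction. Of 35 thermogenic genes 6 were in the table, 3 with a lower and 3 with a higher Cre mean, and the median difference was 0.30, and -0.06 without Cre 5. With ranks it was 0.20 of the rank range. Kcnk3, a potassium leak channel of brown fat cells, and Ckb, the creatine kinase of the futile creatine cycle, were the 2 non-overlapping ones, both higher, against 4.36% of all genes. For Kcnk3 the gap was only 0.0023, with -0.53 in both Cre 6 and control 2. Its difference of 1.45 was 0.87 without Cre 5. Ckb had 0.10, 1.84 and -0.41 in Cre 4, 5 and 6, against -1.12 and -0.95 in controls 1 and 2, so Cre 5 stood far above. Removing Cre 5 took the difference of Ckb to 0.88, against 1.54 over all 5. Bmp8b, a secreted factor of active BAT, had 0.14, 1.40 and -0.86 in Cre 4, 5 and 6, against -1.67 and 0.53 in controls 1 and 2, and the groups overlapped. Of 32 adrenergic and cAMP genes 6 were in the table, 2 non-overlapping and lower and 2 higher, against 28.7% and 4.36% of all genes. Their median difference was 0.52, and -0.23 without control 1. Adra1b, an alpha 1 adrenergic receptor, had -0.53, -0.44 and -0.74 in Cre 4, 5 and 6, against 2.20 and -0.11 in controls 1 and 2. Adcy3, an adenylyl cyclase, had 0.53, 0.76 and -0.04 in Cre 4, 5 and 6, against -2.01 and -0.26 in controls 1 and 2. Both differences rested on control 1: without it that of Adra1b was -0.46 and that of Adcy3 0.68.

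Stress hormone and immediate early genes were set apart less clearly. Of 23 glucocorticoid-induced genes 9 were in the table, 7 with a lower Cre mean, against 82.5% of all genes, and 3 non-overlapping and lower, against 28.7%. The median difference was -1.20, near the -1.29 over all genes. Fkbp5, a cochaperone of the glucocorticoid receptor, had -1.49, 0.19 and -1.22 in Cre 4, 5 and 6, against 0.60 and 1.14 in controls 1 and 2. Of 22 immediate early genes 11 were in the table, and 7 of these were highest in Cre 5 and 7 lowest in Cre 4. Egr1, an early response transcription factor, had -0.76, 2.15 and -0.52 in Cre 4, 5 and 6, against -0.01 and -0.17 in controls 1 and 2. The list's median difference was -0.27, and it was positive without control 1 (0.26) and with ranks (0.17 of the rank range). The shift common to all genes takes it to 0.85 with centring. Crhr2, a receptor of urocortins chosen after its values were seen, had -1.40, -0.25 and -0.43 in Cre 4, 5 and 6, against 1.30 and 1.33 in controls 1 and 2.

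Other lists followed single libraries. All 28 T and NK cell genes, 47 of 48 interferon-stimulated genes and all 11 guanylate binding protein genes, a family picked with its values in view, had their highest value in control 1. Their median differences of -1.27, -1.23 and -1.19 became 0.11, 0.17 and 0.23 without it. Non-overlapping members numbered 1, 3 and 0, lower in each case, against 28.7% over all genes. Of 25 cell division genes 24 were highest in control 1, and 10 were non-overlapping and lower, against the same 28.7% over all genes. Mki67, the proliferation antigen, had -0.58, -0.34 and -0.56 in Cre 4, 5 and 6, against 2.17 and 0.02 in controls 1 and 2. The median over the list, -1.45 on all 5 libraries, shrank to -0.34 when control 1 was removed. Cytosolic ribosome genes gave -1.28 and -0.55, and +0.07 of the rank range with ranks. They were low in Cre 5, with a list mean of -1.29, and high in control 1, with 1.43.

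Cre 5 also stood apart for matrix and blood cell genes. The table held 17 extracellular matrix genes. Cre 5 was the top library for 13 of them, and their mean there was 1.21. Their median difference of -0.26 was positive without Cre 4 (0.18), without Cre 6 (0.12) and with ranks (0.04 of the rank range), and was -1.16 without Cre 5. The common shift takes it to 0.85 with centring. The 4 erythroid genes were lowest in Cre 5, with list means of 0.39, -1.72 and -0.83 in Cre 4, 5 and 6, against 1.11 and 0.55 in controls 1 and 2. Alas2, the heme synthesis enzyme of red cell precursors, was the 1 non-overlapping member, with 0.09, -1.49 and -1.06 in Cre 4, 5 and 6, against 0.86 and 1.37 in controls 1 and 2. Hepatocyte genes had a higher Cre mean in 19 of 20, against 17.5% of all genes, with 18 highest in Cre 6. Of the 20, 0 were non-overlapping, against 28.7% lower and 4.36% higher over all genes. Once Cre 6 was removed their median difference was 0.02, against 0.76 over all 5. Alb, albumin, had -0.59, -0.19 and 2.11 in Cre 4, 5 and 6, against 0.16 and -0.87 in controls 1 and 2.

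**Figure D4:**
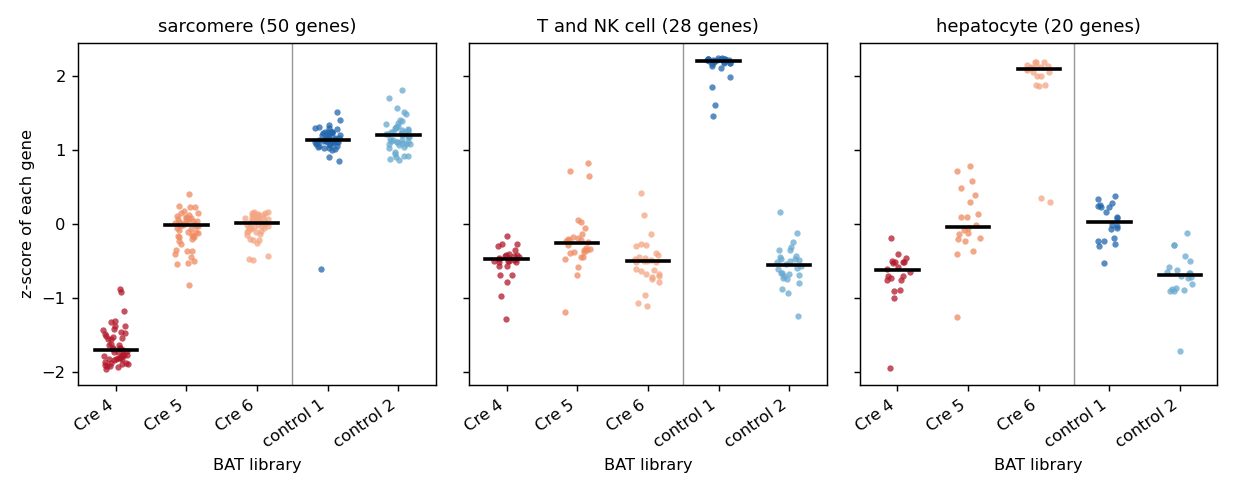
The z-score of every gene (points) of 3 lists in the 5 BAT libraries, with the list median as a bar. Sarcomere genes lie above 0 in both controls but for 1 gene in control 1 and lowest in Cre 4, T and NK cell genes are high in control 1 alone (mean 2.13), and hepatocyte genes in Cre 6 alone (mean 1.89).

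**Figure D5:**
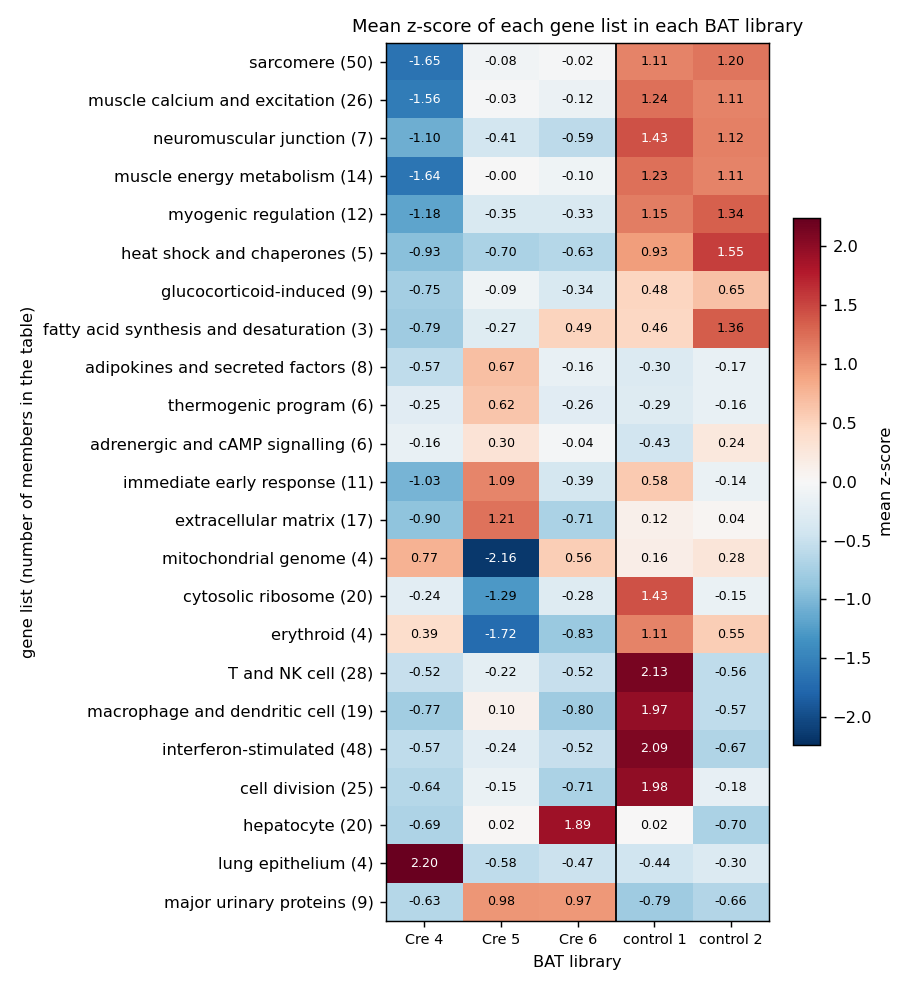
The mean z-score of 23 gene lists (rows, with the number of members in the table) in the 5 BAT libraries, Cre libraries left and control libraries right of the line, blue for low and red for high. The muscle and heat shock lists are high in both controls, with 1.11 and 1.20 for the sarcomere list, while the T and NK cell, interferon and cell division lists are high in control 1 only.

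Major urinary protein genes, pheromone carriers made mainly by the liver, had a higher Cre mean in 9 of 9 table members, against 17.5% of all genes, and 3 of them were non-overlapping, against 4.36%. With each library left out in turn 7 of the 9 kept their direction, and the median with ranks was 0.55 of the rank range. Averaged over the 9, the z-score was -0.63, 0.98 and 0.97 in Cre 4, 5 and 6, against -0.79 and -0.66 in controls 1 and 2. In this average Cre 5 and Cre 6 were high and Cre 4 was near the controls, while the hepatocyte list was high in Cre 6 only. Single members differed, with 6 highest in Cre 6 and 3 in Cre 5. Mup3 had -0.51, -0.24 and 2.08 in Cre 4, 5 and 6, against 0.24 and -0.63 in controls 1 and 2. Mup9 had -0.44, 2.24 and -0.43, against -0.47 and -0.42, and its difference of 0.90 was 0.0062 without Cre 5. Mup18 had 0.24, 0.14 and 0.64 in Cre 4, 5 and 6, against -1.45 and -1.07 in controls 1 and 2, and Mup16 -0.48, 0.96 and 1.42, against -1.04 and -1.26. These genes are near-identical copies, so their reads are uncertain.

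The kind of gene also mattered to the counts. Of 2005 protein coding genes 38.0% had non-overlapping groups, 659 lower and 102 higher. Of 410 pseudogenes 10% had, 36 lower and 5 higher. The share with a lower Cre mean was 82.9% in protein coding genes and 79.8% in pseudogenes. At least a pair of libraries was tied at the lowest value in 331 genes. Without these, 681 genes (31.4%) were non-overlapping and lower and 109 (5.03%) higher. Of the 24 named genes 3 are also among the genes of the separately scaled liver table, Cd24a, Nnt and Slc15a2, and in liver the Cre and control libraries overlapped for all 3.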

How the data were processed

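Poly(A) RNA of BAT was sequenced, per the labels' protocols, which describe directional and non-directional libraries without saying which was used, so reads of a gene and of one overlapping it on the other strand cannot be told apart. The values deposited by the authors are scores, namely row z-scores of normalized expression for 2500 genes. In all 2500 genes the 5 values and minus their sum have squares that add up to 6 within 1e-06, so 6 libraries entered the scaling. GRCm38, mm10 and mm9 as builds, and DESeq2 1.20.0 and TopHat 1.3.3 as tools, appear in the submitters' processing notes without a role. The choice of the 2500 genes and any log transform are not given in the sources used here. Depth is unknown.

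Samples were grouped by their titles. The difference is Cre minus control, in z-score. The test was a linear model per gene in limma 3.58.1 under R 4.3.3, two-sided, without variance moderation since total variance was set equal by the scaling, with Benjamini-Hochberg adjustment over 2500 genes and a threshold of 0.05. It was tested on simulated data. Genes with a residual SD under 1e-06 were not tested. Ranks were divided by the number of genes. Alternatives were each library left out, control 1 and Cre 4 left out together, genes without ties or without predicted names, moderation, library centring and ranks. Of 2500 symbols, 2427 matched 1 gene of GENCODE M21 (GRCm38), and promoters are from RefSeq GRCm38.p6. Members and all 52 gene lists were chosen with earlier results of these data known. Named genes are the 12 per direction, among non-overlapping genes with other than predicted or clone names, with the largest smallest difference over the fits that leave out 1 library, and the first 4 table members of each list. Others were chosen after their values were seen, which includes Myl1, Myh3, Myh6, Mstn, Lrp4, Sln, Hspa1l, Apln, Egr1, Alas2, Mup16 and Mup18. Python 3.11.15, pandas 2.3.3 and matplotlib 3.10.9 made summaries and figures.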

Additional observations from a re-analysis of the deposited data

How the results depend on the processing

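Without control 1 the Cre mean was lower for 49.4% of genes and higher for 45.6%, with the rest at no difference. With control 1 and Cre 4 left out together the balance turned, with 44.4% lower and 49.8% higher. With each library left out the percentage of genes with a lower Cre mean lay between 49.4% and 86.1%. Genes past the adjusted threshold numbered 0 to 433 over the 5 left-out libraries, with 433 without control 2, and 15 with ranks. At an unadjusted p under 0.05, 82 to 896 genes were lower and 21 to 40 higher over the left-out libraries. With both libraries left out 126 were lower, with centring 34, and with ranks 29 were lower and 96 higher. Non-overlapping genes numbered 778 to 1924 lower and 126 to 462 higher over the left-out libraries. With both out 661 were higher. With centring 166 were lower and 221 higher, and with ranks 142 and 234. The cause was not tested. Filters on ties and on predicted names, and moderation, kept every count within 1.5 times. The 24 named genes were chosen by their differences with each library left out, so their direction there is fixed by the choice, and 3 of them passed the adjusted threshold without control 2. Of 40 lists with at least 3 members, the median changed sign in 18 with both libraries out, in 12 without control 1 and in 12 with ranks. Centring, which moves every difference by the same 1.12, turned 11. No paired analysis was possible because the Cre and control libraries share no replicate numbers. Z-scores give no depth, so low counts cannot be recognised.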

Other observations

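A set of 6 smooth muscle contractile genes, chosen after their values were seen, ran unlike those of skeletal muscle. The Cre mean was higher for 5 of 6 smooth muscle contractile genes, and control 1 was the lowest library for 5. Acta2, the smooth muscle actin, had -0.11, 1.10 and -0.06 in Cre 4, 5 and 6, against -2.04 and 0.56 in controls 1 and 2. The median difference of the 6 was 1.21 over all 5 libraries, and 0.05 without control 1. The smooth muscle and pericyte marker list, with 7 genes in the table, was divided. Of these, 3 had a lower Cre mean, all 3 non-overlapping, and 4 a higher one, 1 of them non-overlapping. Over all genes 28.7% were non-overlapping and lower and 4.36% higher. Des, which is in that list but not among the 6, had a difference of -1.86.

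Transport genes showed both directions. Of 39 solute carrier genes, also a family chosen after its values were seen, 14 were non-overlapping and lower and 5 higher. Over all genes these shares were 28.7% and 4.36%. Of 14 potassium channel genes, a family chosen after its values were seen, 8 were non-overlapping and lower and 1, Kcnk3, higher, beside the same shares of all genes. The gap between the groups for Kcnk3 was only 0.0023. Ptger3, a prostaglandin E receptor chosen after its values were seen, had -0.58, -0.67 and 0.15 in Cre 4, 5 and 6, against 1.35 and 1.17 in controls 1 and 2. Among 13 keratinocyte and gland markers 4 were non-overlapping and lower, a share near the 28.7% of all genes. Of these, Krt19 had -1.16, -0.70 and -1.02 in Cre 4, 5 and 6, against 1.34 and 0.50 in controls 1 and 2.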
